A study of Mus musculus with 5 samples.

Results

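The 39 genes described here encode proteins of autophagy and of mitophagy, its form that removes mitochondria. They were chosen by symbol, and each of the 39 is a row of the 12370 gene symbols in the deposited count table. The table holds RNA sequencing counts from mouse lenses at embryonic day 14, in 3 control and 2 knockout libraries. Controls were Cre-negative and carried loxP-flanked N-myc, written N-mycloxP/loxP. A control genotype that also carries c-mycloxP/loxP is named in the labels, and the sources used here do not give which control library had it. Knockout lenses were Mlr10-Cre+/- with N-mycloxP/loxP, Mlr10-Cre being a transgene that expresses Cre recombinase in the lens. No control library carried the transgene, so its effects and those of the deletion cannot be told apart in any value below. Lysates of lenses from individual animals were pooled before RNA purification, in numbers that the sources used here do not give.

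In autophagy a membrane grows around cytoplasm, closes into an autophagosome and fuses with a lysosome. A kinase complex and a lipid kinase complex start the membrane, lipid transfer proteins feed it, and small ATG8 proteins are attached to its lipids by enzymes that work like a ubiquitin cascade. Receptor proteins tie cargo to the ATG8 proteins, and mitophagy receptors do so for mitochondria. The lens is a known setting for these genes because its fibre cells lose nuclei, mitochondria and other organelles when they mature.

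A library held between 13162384 and 13746416 counts, of which the 39 genes made up 0.203% to 0.216%. Mycn, the deleted gene, stood at 162, 148 and 140.3 CPM in control replicates 1 to 3 and at 57.3 and 81.9 CPM in the knockouts. CPM is the count of a gene relative to the library total after TMM scaling. The log2 fold change of Mycn was -1.11 (SE 0.15, edgeR quasi-likelihood adjusted p = 0.0097), and without control replicate 2 its adjusted p was 0.056, the highest of 14 alternatives (lowest 9.19e-11). All 14 lens markers were detected, summing to 86853 to 108423 CPM in the controls and to 80522 and 94358 CPM in the knockouts. Most of that sum was Cryaa, Cryba1 and Crybb1, and 5 of the 14 fell with edgeR, namely Bfsp1 (log2 -1.62), Cryab (-0.65), Maf (-0.55), Mip (-0.48) and Hsf4 (-0.35). The other 9 did not pass, among them Bfsp2 (log2 -0.84), Cryba1 (-0.51), Lim2 (-0.40) and Crybb1 (0.08), and 5 of the 14 lay above 0. Bfsp1 and Mip are known for their expression in lens fibre cells, and the part of fibre cell content in the results below was not tested. The 2 knockout libraries differed in genes of neighbouring tissues. Tested mesenchyme markers (12 of 13 listed) summed to 787 to 1118 CPM in the controls, 2532 CPM in knockout replicate 1 and 890.5 CPM in knockout replicate 2. Retina markers (10 of 12) summed to 30.7 to 39.6 CPM in the controls, and to 62.8 and 174 CPM in knockout replicates 1 and 2. Skeletal muscle markers (7 of 9) reached 354 CPM in knockout replicate 1 against 12.1 to 52.3 CPM in the other libraries. Macrophage markers (8 of 12) summed to 25.5 to 45.3 CPM in the controls and to 49.5 and 49.9 CPM in the knockouts. The part of these cells in the results below was not tested. In pooled tissue, fewer cells of a type and less RNA per cell cannot be told apart.

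Of the 39 genes, 4 fell and 3 rose in the knockout lenses, and 32 did not pass the test (edgeR adjusted p under 0.05 over 12035 genes). The called share of 17.9% lay near the 16.5% of all genes tested, of which 8.51% fell and 7.98% rose, and is therefore no result about these genes. The genes that fell were Gabarapl1, Optn, Atg3 and Bnip3l, and those that rose were Ulk1, Atg2a and Tbc1d20. The median log2 fold change of the 39 was -0.04, against 0.00 over all genes tested. With library totals as the only scaling these medians were 0.04 and 0.09. The groups' ranges did not overlap for 14 genes that were lower and 9 that were higher in the knockouts. This is 59.0% of the 39 genes, against 52.5% of all tested genes (27% lower and 25.5% higher). For 16 of the 39 the fitted change was smaller than 1.1-fold in either direction. Counts of a member in a library ran from 57 to 3859, and each of the 39 passed the filter on low counts.

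Levels per kilobase of the longest transcript differed 25.1-fold among the 39 genes in the control lenses, with a median of 9.41 CPM per kilobase. The highest were the mitophagy receptor gene Bnip3l (66.5 CPM per kilobase), the cargo receptor gene Nbr1 (59.5), and the ATG8 genes Gabarap (53.7) and Gabarapl1 (39.8). Nbr1 and Gabarap, neighbours in this order, overlapped between control libraries. The lowest were the protease genes Atg4d (2.67) and Atg4a (2.65). Not divided by length, their control means were 15.9 and 5.83 CPM, with longest transcripts of 5951 and 2202 bases. The order thus depends on the transcript length taken.

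**Figure D1:**
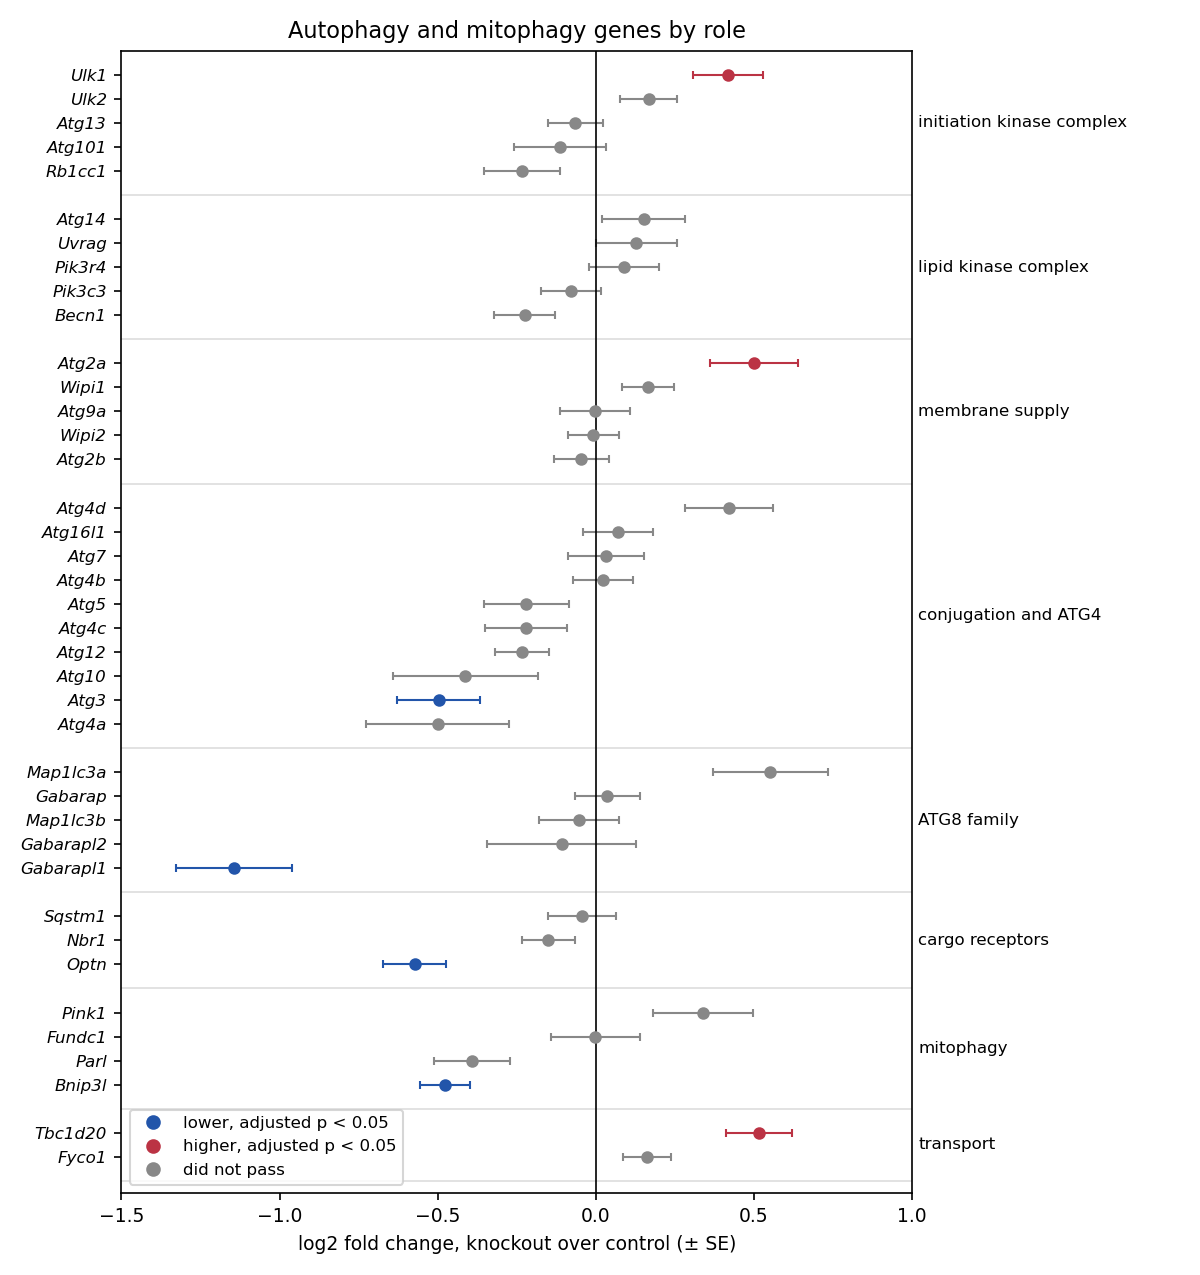
Fitted log2 fold change (knockout over control) with its SE for the 39 genes, ordered by role, from 3 control and 2 knockout libraries. Gabarapl1 lies far to the left at -1.14, and the other called genes lie between -0.57 and 0.52.

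The calls depended on which libraries entered the fit. Of the 39 genes, 0 passed without control replicate 2 or without control replicate 3 (9 and 10 at an unadjusted edgeR p under 0.05, beside 3157 of 11999 and 3253 of 11997 genes in all), and 1, Gabarapl1, passed without knockout replicate 1. Over all genes tested, 0.317%, 1.98% and 2.42% passed in these fits. The adjusted p of Optn then ran from 0.057 to 0.076, that of Bnip3l from 0.058 to 0.076 and that of Tbc1d20 from 0.076 to 0.094. For Atg3 it was 0.12 to 0.21, for Ulk1 0.11 to 0.27 and for Atg2a 0.12 to 0.23. The 7 called genes kept their fitted directions in each of these 3 fits. With libraries scaled by their totals only, 5 of the 39 rose and 3 fell, and of all genes 1511 rose and 637 fell, against 960 and 1024 with TMM.

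The fold changes also followed the base composition of the transcripts. Among all genes, Spearman's rho between fold change and GC content of the longest transcript was 0.46 (11804 genes, all measured in the same 5 libraries), and over the 39 genes it was 0.59. The 2 called members with the lowest GC content, Atg3 (40.1%) and Bnip3l (41.9%), fell, and the 2 with the highest, Atg2a (60.0%) and Ulk1 (58.0%), rose. In a fit with an offset that took out, per library, the dependence on transcript length and GC content, Gabarapl1 (log2 -1.16, adjusted p = 0.0093) and Optn (-0.57, adjusted p = 0.011) still passed, within ranges of 2.01e-07 to 0.063 and 0.000221 to 0.076 over their 14 alternatives. Bnip3l (-0.25, adjusted p = 0.052) and Tbc1d20 (0.36, adjusted p = 0.054) then missed the threshold, within ranges of 3.2e-06 to 0.183 and 0.00752 to 0.181. Atg3 (-0.16), Atg2a (0.02) and Ulk1 (-0.050) were then close to 0. Atg9a, at 0.00 without this correction, was the third gene to pass with it (log2 -0.37, adjusted p = 0.030, range 0.0303 to 1). Exons of Atg9a share 32.6% of their bases with Ankzf1 on the opposite strand and Gm29253 on the same strand.

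**Figure D2:**
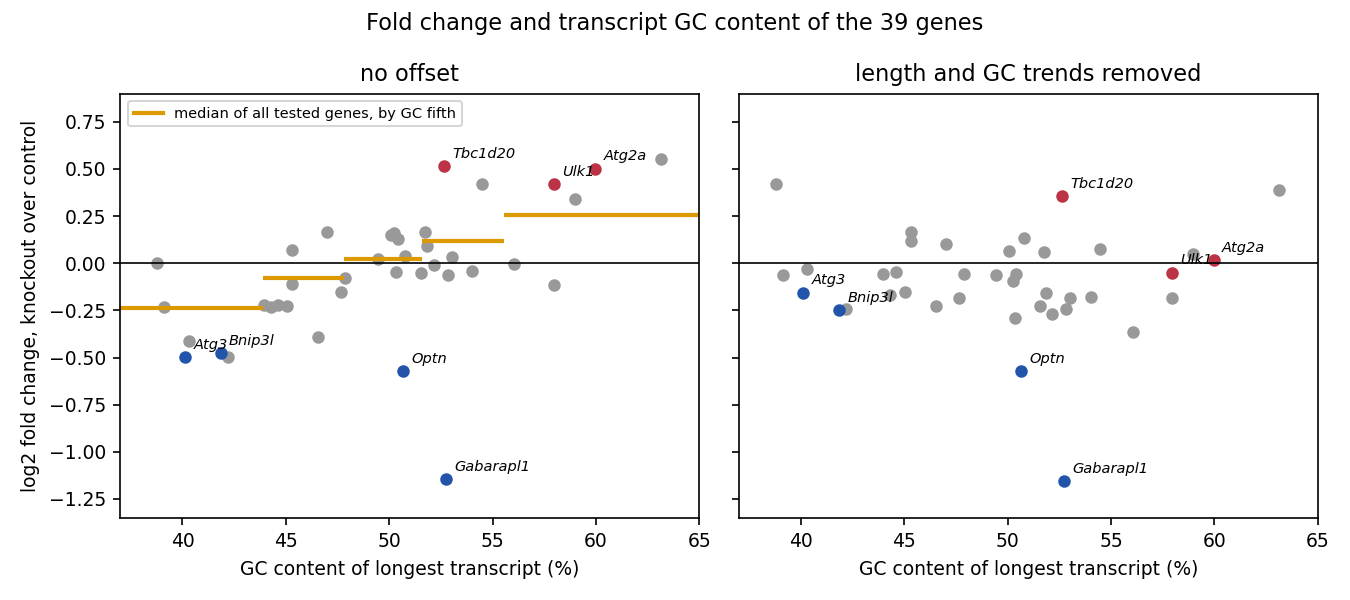
Log2 fold change of the 39 genes against the GC content of their longest transcript, without (left) and with (right) the length and GC offset; colours mark genes called without the offset, blue lower and red higher, and orange bars on the left the median of all tested genes in each of 5 bins of GC content with equal gene numbers. The medians run from -0.24 in the lowest to 0.26 in the highest bin, and Gabarapl1 and Optn stay below -0.5 on the right.

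The largest change lay in the ATG8 family, whose members are coupled to the autophagosome membrane and bind cargo receptors. Gabarapl1 (chromosome 6, 129533160 to 129542346, GRCm38), of the GABARAP branch, stood at 63.4, 76.6 and 77.3 CPM in the controls and at 25.6 and 39.9 CPM in the knockouts. Both knockout libraries lay below every control library, and knockout replicate 1 was the lower of them. It fell 2.21-fold (72.4 ± 7.80 CPM, SD, n = 3, to 32.8 ± 10.1 CPM, SD, n = 2; log2 -1.14, SE 0.18, edgeR adjusted p = 0.013). The change in size exceeded that of 96.1% of tested genes. Its adjusted p was 0.063 when control replicate 2 was left out and 0.0505 when control replicate 3 was, and without knockout replicate 1 the log2 fold change was -0.86.

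Exons of Gabarapl1 share 28.3% of their bases with 1700101I11Rik, a transcript on the opposite strand, and the sources used here do not give the strand setting of the counting. 1700101I11Rik was counted 13, 23 and 17 times in control and 4 and 2 times in knockout libraries (log2 -2.60, SE 0.59, edgeR adjusted p = 0.030). Gabarapl1 had 809, 1009 and 1018 counts in control and 358 and 556 in knockout libraries, far more than this neighbour. Reads of this pair cannot be told apart without strand.

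The other ATG8 genes did not pass. Gabarap, the founding member of the branch, was at 63.7, 78.9 and 75.1 CPM in the controls and at 74.3 and 74.7 CPM in the knockouts, inside the control range. Gabarapl2, another GABARAP gene, was at 9.33, 14.5 and 8.73 CPM against 9.66 and 10.5 CPM. Map1lc3b, the LC3 protein most used as an autophagosome marker, was at 23.0, 26.3 and 28.8 CPM against 25.8 and 24.4 CPM. Map1lc3a, its closest relative in the list, was at 7.92, 6.22 and 6.60 CPM in the controls and at 10.8 and 9.47 CPM in the knockouts (log2 0.55, SE 0.18, edgeR adjusted p = 0.070, range 0.0488 to 0.3 over 14 alternatives). Its ranges did not overlap, in the direction opposite to Gabarapl1.

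The ends of the coding sequences are printed because they show how far the 3 GABARAP genes differ in the letters that reads are matched to. They are the last 90 coding bases of the GENCODE transcripts, stop codon included, and capitals mark bases that differ from Gabarapl1.
Gabarapl1: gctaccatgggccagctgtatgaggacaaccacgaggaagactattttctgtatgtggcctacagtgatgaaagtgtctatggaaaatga
Gabarap: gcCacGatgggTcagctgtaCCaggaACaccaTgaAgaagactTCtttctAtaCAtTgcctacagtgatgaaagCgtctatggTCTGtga
Gabarapl2: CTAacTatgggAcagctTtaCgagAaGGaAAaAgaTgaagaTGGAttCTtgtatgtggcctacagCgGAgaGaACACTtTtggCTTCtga
In this stretch Gabarap differs from Gabarapl1 at 20 and Gabarapl2 at 34 positions. Over the 354 coding bases of each, Gabarapl1 and Gabarap were identical at 74.9%, with no shared run longer than 17 bases. Gabarapl1 and Gabarapl2 were identical at 63.8%, with a longest shared run of 16 bases.

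Within each library the ratio of Gabarapl1 to Gabarap does not depend on how libraries are scaled. Per kilobase of the longest transcript, it was 0.739, 0.720 and 0.763 in control libraries, compared with 0.256 and 0.396 in knockout libraries. The ratio thus lay lower in both knockout libraries, by 1.22 on the log2 scale, and the exact two-sided permutation test over libraries gave p = 0.2, the smallest this design allows. Of the family's summed level per kilobase, Gabarapl1 made up 34.8%, 34.7% and 36.5% in control libraries and 15.5% and 22.4% in knockout libraries. Gabarap made up 47.1% to 48.3% in control libraries and 60.6% and 56.5% in knockout libraries. The summed level of the family was 100.3, 121 and 116 CPM per kilobase in control libraries, compared with 90.8 and 97.8 CPM per kilobase in knockout libraries.

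**Figure D3:**
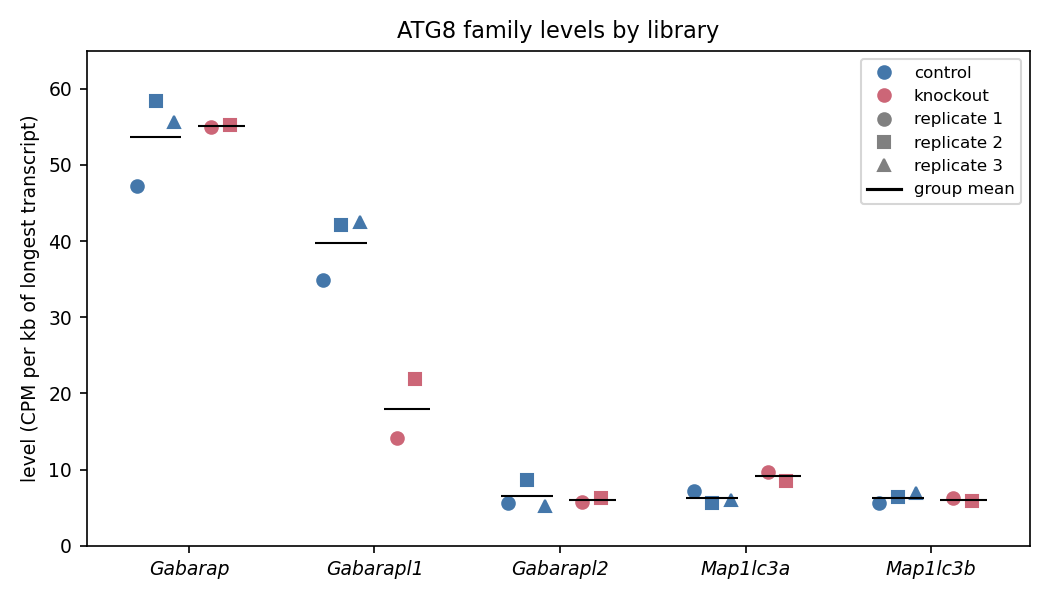
Level of the 5 ATG8 genes in CPM per kilobase of the longest transcript, each point 1 library (blue control, red knockout) and each black line a group mean. Gabarap stays between 47.2 and 58.4 in all libraries, while Gabarapl1 lies at 34.8 to 42.5 in control libraries and at 14.1 and 21.9 in knockout libraries.

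Among the cargo receptors, which bridge ubiquitin-tagged cargo and ATG8 proteins, Optn fell. Optn encodes optineurin, a receptor that acts in the removal of bacteria, aggregates and mitochondria (chromosome 2, 5020642 to 5064051). It was at 61.1, 65.8 and 73.1 CPM in the controls and at 44.1 and 45.6 CPM in the knockouts. The knockout libraries agreed closely and lay below every control. The fall was 1.49-fold (66.7 ± 6.02 to 44.9 ± 1.09 CPM, SD, n = 3 and 2; log2 -0.57, SE 0.10, edgeR adjusted p = 0.015). Sqstm1, which encodes the receptor p62, was at 60.2, 73.2 and 63.2 CPM against 60.0 and 67.2 CPM, with overlapping ranges. Its exons share 17.3% of their bases with Mrnip on the opposite strand. Nbr1, a receptor related to p62 in its domains, was at 274, 289 and 293 CPM against 247 and 267 CPM (log2 -0.15, SE 0.08, edgeR adjusted p = 0.23).

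Bnip3l, a receptor in the outer mitochondrial membrane also called NIX, fell (chromosome 14, 66985239 to 67008877). It was at 208, 217 and 225 CPM in the controls and at 151 and 161 CPM in the knockouts, and the groups did not overlap. The fall was 1.39-fold (217 ± 8.34 to 156 ± 6.70 CPM, SD, n = 3 and 2; log2 -0.48, SE 0.08, edgeR adjusted p = 0.014). Per kilobase Bnip3l had the highest control level of the 39 genes (66.5 ± 2.56 CPM per kilobase) and ranked 3 of 39 in the knockouts. NIX is also known for clearing mitochondria from maturing red blood cells. Of the 16 red blood cell markers 6 were tested, and their sum was 151, 186 and 163 CPM in the controls and 113 and 121 CPM in the knockouts. Most of that gap was Ermap (56.1, 56.7 and 66.6 against 16.8 and 18.1 CPM). Without Ermap, left out after its values were seen, the sum was 95.1, 129.7 and 96.5 CPM against 96.3 and 102.5 CPM, and the ranges overlapped. Of the 6 tested markers, 4 had a log2 fold change below 0 and 2 above, from -1.77 (Ermap) to 1.05 (Slc4a1). Hba-a1, Hba-a2, Hbb-bt and Hbb-b1 were listed at 0 in all libraries. The part of red blood cells in the fall of Bnip3l was not tested.

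Other mitophagy members gave no call. Parl, a rhomboid protease of the inner mitochondrial membrane that cleaves PINK1, was at 22.7, 26.5 and 25.7 CPM against 19.0 and 19.1 CPM (log2 -0.39, SE 0.12, edgeR adjusted p = 0.060), and its ranges did not overlap. Pink1, the kinase that marks damaged mitochondria, was at 16.6, 19.0 and 14.6 CPM against 19.0 and 23.4 CPM. The outer membrane receptor gene Fundc1 was at 14.9, 17.2 and 18.1 CPM against 17.4 and 16.0 CPM, a log2 fold change of 0.00 (SE 0.14). Pink1 and Fundc1 overlapped between the groups.

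The conjugation enzymes held 1 call among 10 genes (10%, against 16.5% of all genes tested). Atg3, the E2-like enzyme that hands ATG8 proteins to the lipid (chromosome 16, 45158785 to 45188538), was at 25.2, 24.4 and 26.0 CPM in the controls and at 16.0 and 19.7 CPM in the knockouts. The knockouts lay below the narrow control range, knockout replicate 1 lowest. Atg3 fell 1.41-fold (25.2 ± 0.759 to 17.8 ± 2.66 CPM, SD, n = 3 and 2; log2 -0.50, SE 0.13, edgeR adjusted p = 0.041). It passed in 6 of 14 alternatives, with adjusted p from 0.0168 to 0.522.

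A further 6 conjugation genes had ranges that did not overlap, as 52.5% of all tested genes did, and none of the 6 passed with edgeR. Atg12, the ubiquitin-like partner of ATG5, was at 84.0, 80.4 and 89.3 CPM against 69.3 and 74.6 CPM (log2 -0.23, adjusted p = 0.091). Atg5 was at 19.1, 19.96 and 21.3 CPM against 15.8 and 18.7 CPM, and Atg10, the E2-like enzyme for ATG12, at 7.53, 5.92 and 6.60 CPM against 4.22 and 5.81 CPM. Atg5 and Atg10 had edgeR adjusted p = 0.27 and 0.23. The 4 ATG4 genes encode proteases that trim ATG8 proteins and free them from lipid. Atg4a was at 5.64, 5.08 and 6.75 CPM against 4.15 and 4.09 CPM, and Atg4c at 18.6, 20.3 and 20.7 CPM against 16.1 and 18.0 CPM. Atg4d lay the other way, at 16.7, 15.0 and 15.9 CPM against 19.1 and 23.4 CPM (log2 0.42, SE 0.14, adjusted p = 0.071). Its exons share 19.3% of their bases with Kri1 on the opposite strand, which was at 26.3 to 29.3 CPM in the controls and 28.1 and 29.7 CPM in the knockouts. Atg4b, Atg7, the E1-like enzyme, and Atg16l1, which directs the conjugation to the membrane, overlapped between groups with log2 fold changes of 0.02, 0.03 and 0.07.

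In the initiation complex, Ulk1, the kinase that starts autophagy under AMPK and mTORC1 control (chromosome 5, 110784488 to 110810097), was at 38.3, 39.5 and 35.7 CPM in the controls and at 55.6 and 45.6 CPM in the knockouts. Each knockout library lay above the controls, knockout replicate 1 by more. Ulk1 rose 1.34-fold (37.8 ± 1.93 to 50.6 ± 7.11 CPM, SD, n = 3 and 2; log2 0.42, SE 0.11, edgeR adjusted p = 0.042), a direction that turned to -0.050 with the length and GC offset. It passed in 7 of 14 alternatives (adjusted p from 0.0147 to 0.816). Its relative Ulk2 was at 84.3, 73.2 and 83.6 CPM against 87.8 and 92.6 CPM (log2 0.17, SE 0.09, adjusted p = 0.22). The scaffold gene Rb1cc1 (FIP200), at 100.7, 98.7 and 117 CPM against 80.1 and 99.4 CPM, and Atg13 (log2 -0.06, SE 0.09) overlapped between groups. Atg101 had a log2 fold change of -0.11 (SE 0.15).

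The class III lipid kinase complex had 0 calls among 5 genes in edgeR, and 0 in DESeq2 and limma-voom. Beside 4311 of 12035 genes in all, 1 of the 5 had an unadjusted edgeR p under 0.05. That gene was Becn1, the beclin 1 scaffold, at 74.3, 84.4 and 89.3 CPM against 70.1 and 71.4 CPM (log2 -0.23, SE 0.10, adjusted p = 0.135, range 0.0491 to 0.519 over 14 alternatives). Exons of Becn1 share 43.9% of their bases with Cntd1 on the opposite strand. The catalytic gene Pik3c3 was at 31.5, 31.7 and 33.3 CPM against 30.4 and 30.6 CPM, a narrow gap without overlap. Pik3r4, Uvrag and Atg14 had log2 fold changes of 0.09, 0.13 and 0.15.

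Of the 5 genes for membrane supply, Atg2a, a lipid transfer protein at the growing membrane (chromosome 19, 6241668 to 6262335), rose. It was at 44.0, 32.7 and 34.6 CPM in the controls and at 56.0 and 48.9 CPM in the knockouts, control replicate 1 being nearest to them. The rise was 1.41-fold (37.1 ± 6.03 to 52.5 ± 5.03 CPM, SD, n = 3 and 2; log2 0.50, SE 0.14, edgeR adjusted p = 0.046). Leaving out control replicate 2 gave a log2 fold change of 0.43 (adjusted p = 0.14), and over 14 alternatives the adjusted p ran from 0.0166 to 0.974. Its paralog Atg2b was at 122, 123 and 110.4 CPM against 109.9 and 119.7 CPM, with overlap. The ratio of Atg2a to Atg2b per kilobase was 0.426, 0.316 and 0.371 in control libraries, compared with 0.604 and 0.484 in knockout libraries. Of 7 such ratios between related members, most of which hold a gene chosen here for its change, 6 did not overlap between the groups, as the ranges of 52.5% of single genes did not. Each of these had an exact two-sided permutation p of 0.2, adjusted to 0.233. The ratio of Ulk1 to Ulk2 overlapped. Wipi2, which recruits the conjugation machinery, was at 148, 138 and 139 CPM against 135 and 146 CPM, and its relative Wipi1 at 71.6, 64.1 and 68.5 CPM against 76.9 and 75.8 CPM (log2 0.17, adjusted p = 0.19).

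The transport pair are both known from cataract in people. Tbc1d20, a GTPase-activating protein for Rab proteins, rose (chromosome 2, 152293828 to 152313996). It was at 20.1, 20.4 and 19.6 CPM in the controls and at 29.0 and 28.3 CPM in the knockouts. The spread within each group was under 1 CPM, and the groups did not overlap. Tbc1d20 passed in 8 of 14 alternatives, with adjusted p from 0.00752 to 0.181. The rise was 1.43-fold (20.02 ± 0.419 to 28.6 ± 0.509 CPM, SD, n = 3 and 2; log2 0.52, SE 0.10, edgeR adjusted p = 0.022). Fyco1, which links autophagosomes to kinesin motors, was at 75.8, 73.4 and 75.2 CPM against 85.8 and 81.5 CPM, higher in both knockout libraries without passing (log2 0.16, SE 0.08, edgeR adjusted p = 0.17).

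**Figure D4:**
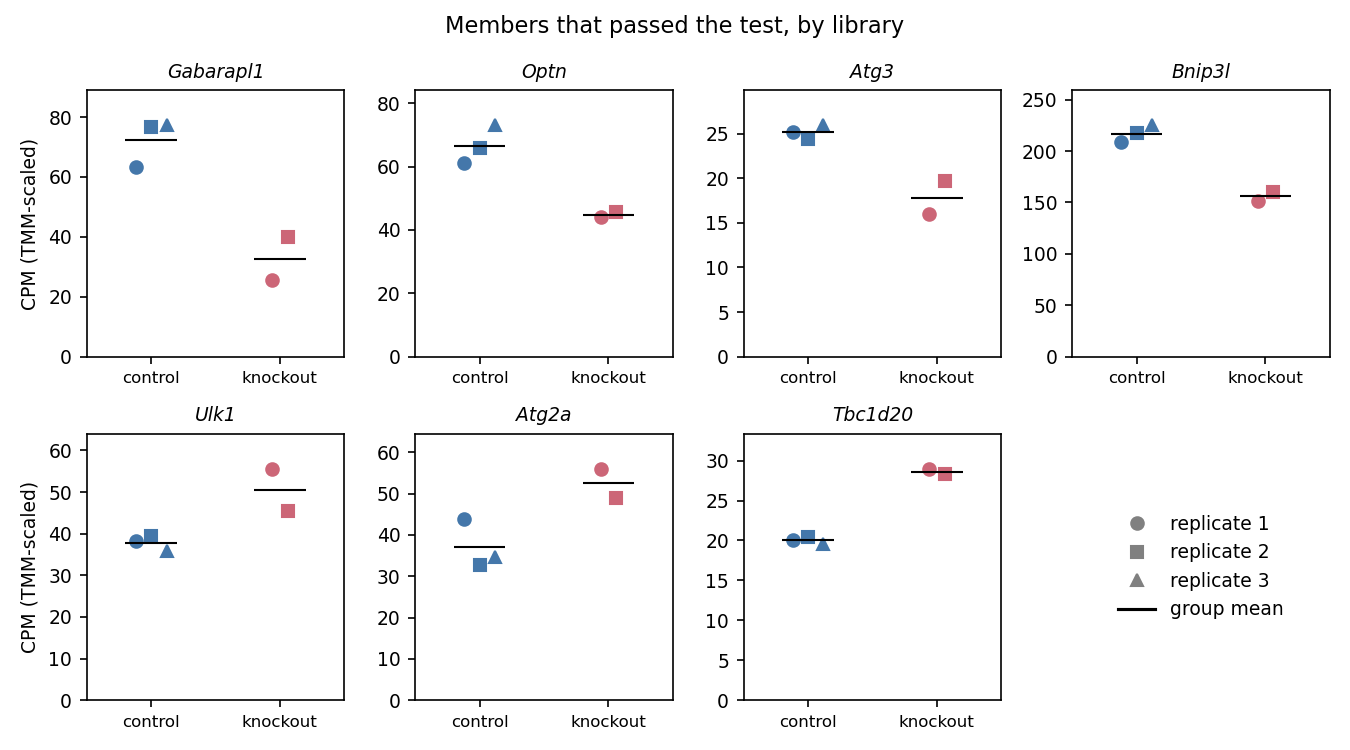
CPM of the 7 called members in each library, symbols marking replicates and black lines group means, with axes that start at 0. The knockout points lie below all control points for Gabarapl1, Optn, Atg3 and Bnip3l and above them for Ulk1, Atg2a and Tbc1d20.

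MYC proteins bind DNA at the E-box CACGTG, so the promoters of the members were searched for these letters, which read the same on both strands. RefSeq promoters (GRCm38.p6, 250 bases before to 50 after a start site) were found for 32 of the 39 genes. The E-box was present for 5 of the 32 (15.6%), namely Atg3, Atg5, Atg7, Atg14 and Tbc1d20, against 7.15% of all 32851 promoters and 10.02% of the 11961 promoters of tested genes. Of the 6 called members with a promoter entry, Atg3 and Tbc1d20 held it. The hypoxia-factor core ACGTG, searched on both strands and contained in the E-box, was present for 15 of the 32 (46.9%), in 19.6% of all promoters and in 25.7% of those of tested genes. For both motifs a member counted once if any of its promoters held the letters. The shares of all promoters and of those of tested genes count each promoter singly. These shares are unlike measures, and no excess among the members can be read from them. A match is a description of the letters in the window and shows no binding. Capitals mark the E-box in the stretches below, which are shown for the called genes that hold it and, beside them, for the gene with the largest fall.
Atg3, chr16:45158665-45158784, plus strand: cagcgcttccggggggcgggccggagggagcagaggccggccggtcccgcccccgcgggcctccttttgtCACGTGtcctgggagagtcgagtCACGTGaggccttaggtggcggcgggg
Tbc1d20, chr2:152293808-152293832, plus strand: ccccgaaacgtaggtCACGTGgggg
Gabarapl1, chr6:129533040-129533159, plus strand: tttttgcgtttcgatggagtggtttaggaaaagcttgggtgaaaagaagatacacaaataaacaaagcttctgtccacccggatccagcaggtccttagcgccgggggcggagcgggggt
The E-boxes of Atg3 begin 94 and 71 bases before its RefSeq start site, and that of Tbc1d20 begins 5 bases before its own. The printed Atg3 stretch ends just before the GENCODE gene start, which lies upstream of the RefSeq site, so these distances do not count from its end. Atg3 was lower and Tbc1d20 higher in the knockouts, so the 2 called genes with an E-box did not share a direction. Gabarapl1 has none in its window.

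Genes of the same pathway outside the 39 were taken from 4 lists of textbook genes, with 73 of 76 tested. Of these 8 fell and 2 rose, which is 13.7% against the 16.5% of all genes, with a median log2 fold change of -0.02. Of 17 other mitophagy and receptor genes, 4 fell (23.5%). Bnip3, the paralog of Bnip3l, was at 20.6, 38.1 and 20.6 CPM in the controls and at 12.2 and 10.9 CPM in the knockouts. It fell 2.29-fold (log2 -1.20, SE 0.28, edgeR adjusted p = 0.032), with control replicate 2 far above the other controls. Bnip3 passed in 8 of 14 alternatives, with adjusted p from 0.000749 to 0.112. It missed the threshold without control replicate 2 (edgeR adjusted p = 0.064) and also without control replicate 3. Of all genes tested, 0.317% and 1.98% passed in these fits. Exons of Bnip3 share 22.3% of their bases with Gm45507 on the opposite strand. The coding sequences of Bnip3 and Bnip3l were identical at 409 of 545 aligned bases, with no shared run over 14 bases. Tax1bp1, a ubiquitin-binding receptor like Optn, fell 1.35-fold from 147, 159 and 161 CPM to 108 and 123 CPM. Phb2, an inner membrane prohibitin that binds LC3, fell 1.25-fold, and Vdac1, the outer membrane channel, 1.22-fold (adjusted p = 0.035 and 0.045). With the length and GC offset, Bnip3 (log2 -0.85), Tax1bp1 (-0.17, from -0.43) and Vdac1 (-0.26) did not pass. Tax1bp1 passed in 9, Phb2 in 6 and Vdac1 in 7 of 14 alternatives, with fitted directions kept in all 14 for each.

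Among 28 tested genes of mTORC1, AMPK and TFEB control, 4 fell and 1 rose. This called share of 17.9% lay near the 16.5% of all genes tested and is no result about the list. Prkab2, the beta 2 subunit of the energy sensor AMPK, was at 92.7, 96.7 and 97.1 CPM in the controls and at 61.1 and 60.0 CPM in the knockouts, and fell 1.58-fold (log2 -0.66, SE 0.08, edgeR adjusted p = 0.0070). Prkaa2, its alpha 2 catalytic subunit, was at 124, 124 and 126 CPM against 76.6 and 86.3 CPM and fell 1.53-fold (log2 -0.62, SE 0.08, edgeR adjusted p = 0.0097). Mitf, a relative of the lysosomal regulator TFEB, fell 1.54-fold from 36.8, 44.2 and 47.3 CPM to 25.3 and 30.2 CPM (edgeR adjusted p = 0.027). Fnip2, a folliculin partner, rose 1.26-fold (edgeR adjusted p = 0.048) and passed in 4 of 14 alternatives (adjusted p from 0.0298 to 0.646, log2 fold change from 0.10 to 0.41). The 2 AMPK genes each passed in 13 of 14 alternatives and missed the threshold only without control replicate 2 (adjusted p = 0.053 and 0.056, lowest over the alternatives 9.99e-09 and 7.55e-08). The genes that follow were named after their values were seen. The other AMPK subunit genes on the list did not pass, Prkaa1 at 51.8, 57.9 and 62.1 CPM against 47.2 and 53.7 CPM, Prkab1 at 16.2, 16.6 and 15.3 CPM against 18.7 and 17.4 CPM, and Prkag1 with a log2 fold change of 0.38 (adjusted p = 0.075). Tfeb, at 7.92, 6.83 and 7.44 CPM against 10.2 and 7.46 CPM, and Tfe3 did not pass. Rheb, the GTPase that activates mTORC1, was at an adjusted p of 0.0497 (log2 -0.36) and passed in 0 of 14 alternatives (0.0506 to 0.25). Mtor itself was at 462, 370 and 393 CPM against 402 and 394 CPM.

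Of 14 other early autophagy genes, 1 rose (7.14%, against 16.5% of all genes tested called in either direction). Ambra1, a partner of beclin 1, was at 63.8, 58.4 and 57.2 CPM in the controls and at 89.9 and 73.2 CPM in the knockouts, and rose 1.36-fold (log2 0.45, SE 0.11, edgeR adjusted p = 0.033). With the length and GC offset its log2 fold change was 0.079 and it did not pass (adjusted p = 0.49, range 0.00683 to 0.735 over 14 alternatives). Of 14 genes for fusion with the lysosome, 0 passed with edgeR, DESeq2 or limma-voom. An unadjusted edgeR p under 0.05 was found for 5 of the 14, beside 4311 of 12035 genes in all, so this count is no result about them. Rab7, the GTPase of late endosomes, was at 80.8, 88.0 and 94.9 CPM against 84.6 and 84.4 CPM. Ykt6, a fusion SNARE, was at 73.8, 69.5 and 79.0 CPM against 70.4 and 79.6 CPM, also with overlap.

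**Figure D5:**
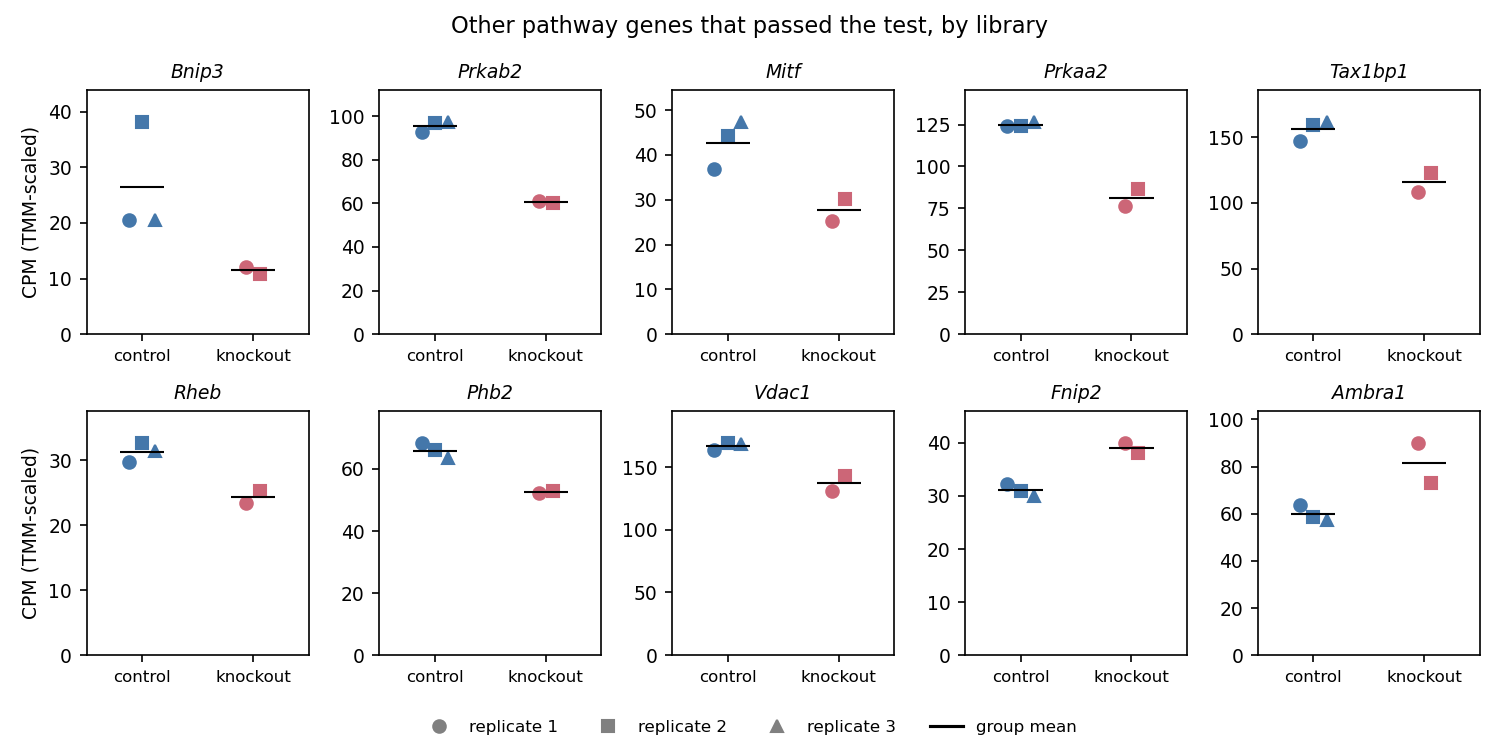
CPM in each library for the 10 called pathway genes outside the 39, symbols marking replicates and black lines group means, with axes that start at 0. Prkab2 and Prkaa2 show knockout points at 60.0 to 86.3 CPM, below their controls at 92.7 to 126 CPM, while the control points of Bnip3 are spread from 20.6 to 38.1 CPM.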

How the data were processed

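The authors deposited raw counts for 12370 gene symbols in a single table; totals differ between libraries and all values are whole. Per the submitters' processing notes, the tools were Trim Galore (0.3.7), TopHat2 (2.0.13) and HTSeq (0.6.1), along with Cufflinks (2.2.1) and DESeq2, on build mm10, without roles or order. Annotation, strand setting and the rule behind the symbol list: not given in the sources used here. Sample titles gave the groups.

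Counts were tested in R 4.3.3 with edgeR 4.0.16 (filterByExpr with minimum count 10, TMM, glmQLFit and glmQLFTest, no covariate), with Benjamini-Hochberg adjustment over 12035 genes and a threshold of 0.05. SE is the log2 fold change over the square root of F. Alternatives were run with DESeq2 1.42.0, limma 3.58.1 (voom), other scalings, no filter, each library left out, the replicate number as a block, and a loess trend (span 0.3) on transcript length and GC content. Scripts were tested on simulated data. Positions, lengths and exon overlap came from GENCODE M21 (GRCm38), and the longest transcript of a symbol, of any transcript type, gave levels per kilobase. Exons of 26 of the 39 members share no base with another gene. No pair of libraries in a group agreed within sampling noise (chi-square over its degrees of freedom at least 9.98), and the p-values reflect only how far these pools spread. The members and gene lists were chosen with earlier results of these data known. All 39 members are accounted for. Those that passed, the 10 others with the largest changes among those without overlap and the 2 highest of each role were to be given by library, and the rest by a value or a fold change. Of each other list, up to 4 called genes were named, or the 2 highest where none was called.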

Additional observations from a re-analysis of the deposited data

How the results depend on the processing

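Counts of called genes moved most when libraries were left out. Over the 5 fits that each leave out 1 library, the called members ran from 0 to 7 (0 to 3 higher, 0 to 4 lower), the other pathway genes from 0 to 11, and all genes called from 38 to 2717 (21 to 1426 higher, 17 to 1291 lower). Mycn ran from -1.39 to -0.87 on the log2 scale in these fits, and without control replicate 2 its value was -1.11 (adjusted p = 0.056). Without TMM factors, 5 members rose, and 1511 of all genes rose and 637 fell. With the length and GC offset, 3 members passed (0 higher), and all genes called numbered 1197 (343 higher). With the replicate number as a block, which leaves 1 residual degree of freedom, 3 members (0 higher), 6 other pathway genes and 995 genes in all (473 higher, 522 lower) passed. With the block and the length and GC offset together, 1 member (0 higher, 1 lower), 2 other pathway genes and 272 genes in all (99 higher, 173 lower) passed. The deviations of same-numbered libraries from their group means correlated at -0.09 and 0.01. With 2 knockout libraries these deviations mirror each other (correlation -1), so the values cannot decide whether the numbers pair the libraries. The log2 fold change of Ulk1 was -0.050 with the length and GC offset and -0.057 with the block added, and that of Stk11 was -0.33 with the offset against 0.12. For these results the cause was not tested. RLE and upper quartile scaling, DESeq2, limma-voom and the fit without a filter each called the same 7 members. Depth bears most on the members with the fewest counts, the lowest being 57 in a library.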
